A study of Mus musculus with 14 samples.

Results

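NADPH oxidases are membrane enzymes that pass electrons from NADPH to oxygen, and 5 genes of subunits of them were described here: Ncf1, Ncf4, Cyba, Cybb and Nox4. They were chosen by gene symbol because Ncf1 had no counts at day 0 and a clear level by day 5 in control cells, so those Ncf1 values are a description and carry no test. Of the 24346 genes with counts, 4 of the 5 subunits had a row. Ncf4 had none and is not analysed here. Cyba, Nox4 and Ncf1 had enough counts to be tested, and Cybb did not.

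The cells were MC3T3-E1, a mouse calvarial osteoblast precursor line, labelled by the submitters as osteoblasts. Polyadenylated RNA was sequenced as directional libraries from a control genotype and from a knockdown of Macf1, which codes for a linker of microtubules and actin filaments. Each genotype had 2 libraries at day 0, 2 at day 3, 2 at day 5 and 1 at day 10, which made 14 libraries. Sample titles mark the control libraries NC and the knockdown libraries sh, without further explanation. By what construct the knockdown was made, whether it is 1 clone, what treatment the cells had and from which event the days count were not stated in any source used here. The design text calls the replicates biological, but nothing says that they came from separate cultures, so a p-value here reflects only how these libraries vary, possibly for technical reasons.

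The libraries held 8044687 to 23301514 counts. A lower level of Macf1 was not shown in the libraries labelled knockdown, with 129 to 181 CPM (counts scaled to library size) against 55.2 to 205 CPM in the controls and an averaged difference of 0.13 on the log2 scale (SE 0.24, adjusted p = 0.724 by the edgeR quasi-likelihood test, Benjamini-Hochberg adjusted). Control day 3 replicate 2 held the 55.2 CPM, and without it the difference was −0.08 (SE 0.06, adjusted p = 0.277 by edgeR), and 0.51 (adjusted p = 2.39e-05 by edgeR) without replicate 1 of that group. The day 5 means were 190 CPM in the controls and 175 CPM in the labelled libraries, and the single day 10 libraries held 196 and 129 CPM. The group is therefore called by its label throughout. The libraries of control day 3 stood apart from each other, with a Pearson correlation of log2 CPM over genes of 0.924, whereas the remaining pairs of replicates reached 0.987 to 0.989. Their difference also went with exon length (Spearman's rho over genes was −0.404, and −0.03 to 0.111 for the remaining pairs), and replicate 2 had the higher values for short genes. Some results that rest on this library are given with and without it, while other averages over days 0, 3 and 5 are given only with it.

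In phagocytes, a membrane heterodimer of Cybb (gp91phox, also Nox2), the catalytic subunit, and Cyba (p22phox), its stabilising partner, makes superoxide once cytosolic subunits join it. Ncf1 (p47phox) is the organiser that is phosphorylated and brings cytosolic partners to the membrane, among them Ncf4 (p40phox, which binds phosphatidylinositol 3-phosphate), while the GTPase Rac joins them there. Nox4 is another catalytic subunit that also pairs with Cyba, releases mainly hydrogen peroxide and needs no cytosolic organiser. Phagocytes are the best known source of Cybb and the cytosolic subunits, while Nox4 and Cyba are found in many cell types.

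Ncf1 and Cybb are organiser and catalytic subunit of the same phagocyte enzyme, and their promoters are shown because Ncf1 reached 834 counts in a control library while Cybb had none in any control. Each runs from 250 bases before to 50 bases after the start in RefSeq (GRCm38.p6), read 5′ to 3′ on the gene's strand. That of Ncf1 lies at chr5:134229576-134229875 and that of Cybb at chrX:9469275-9469574, both on the minus strand, and capitals mark matches to the motifs named after them.
Ncf1: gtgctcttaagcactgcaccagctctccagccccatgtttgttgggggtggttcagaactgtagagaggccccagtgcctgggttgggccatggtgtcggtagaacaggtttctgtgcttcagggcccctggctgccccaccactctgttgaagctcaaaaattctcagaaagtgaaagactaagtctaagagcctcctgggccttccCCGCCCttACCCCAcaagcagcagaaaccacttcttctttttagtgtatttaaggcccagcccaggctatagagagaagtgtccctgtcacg
Cybb: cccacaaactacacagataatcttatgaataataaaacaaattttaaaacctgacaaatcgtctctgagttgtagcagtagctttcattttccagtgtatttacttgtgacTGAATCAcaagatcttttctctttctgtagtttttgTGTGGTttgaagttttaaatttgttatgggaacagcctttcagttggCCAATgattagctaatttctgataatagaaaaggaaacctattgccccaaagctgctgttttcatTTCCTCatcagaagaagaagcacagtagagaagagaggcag

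The motifs searched on both strands were TGNGGT as a loose pattern for RUNX factors, GAGGAA for ETS factors and TGANTCA as a loose pattern for AP1. TATAAA for the TATA-binding protein, GGGCGG for SP factors and the CCAAT box were also searched. N stands for any base, so a match need not be a preferred site of the factor. The Ncf1 window matched TGNGGT with the letters TGGGGT at 34 bases before the start, and held GGGCGG at 42 bases before it. Both were on the opposite strand and without overlap. Each position given is that of the leftmost base of the match in the window as printed. The Cybb window matched TGNGGT with TGTGGT at 103 and TGANTCA with TGAATCA at 139 bases before the start. It held CCAAT at 56 bases before the start and GAGGAA on the opposite strand at base 10 after it. The match of TGANTCA covers the same bases on both strands. Among 32851 RefSeq promoters of this length, 45.8% held TGNGGT, 35.7% GGGCGG, 28.3% GAGGAA, 7.81% TGANTCA, 37.4% CCAAT and 13.6% TATAAA. These are matches of letters, and no factor was measured on them. The windows also differed in composition: GC made up 54.0% of the Ncf1 window, 60.7% of that of Cyba, 35.3% of that of Cybb and 68.3% of that of Nox4, with 3, 9, 1 and 24 CpG dinucleotides respectively. The medians over all 32851 promoters were 52.7% GC and 7 CpG dinucleotides.

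Ncf1 (ENSMUSG00000015950.11, chr5:134220053-134229625 on the minus strand, GRCm38) went from no counts to 496 or more at day 5 in control cells. Its counts were 0 in each library of day 0, 88 and 52 in those of day 3, 834 and 496 in those of day 5 and 464 in the single library of day 10. On the CPM scale the day 3 libraries held 5.66 and 7.64 CPM, those of day 5 held 46.6 and 38.6 CPM and that of day 10 held 23.8 CPM. A count of 0 at day 0 allows up to 0.19 CPM in replicate 1 and 0.209 CPM in replicate 2, which is 3 counts per library and covers counting error only. Day 0, 3 and 5 libraries did not overlap, and the day 10 library lay between those of days 3 and 5.

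Against that floor, Ncf1 was at least 33.4-fold higher at day 3, at least 214-fold higher at day 5 and at least 119-fold higher at day 10 in control cells. The mean at day 5, 42.6 CPM ± 5.6 (SD, n = 2), was 6.41 times that at day 3, 6.65 CPM ± 1.40 (SD, n = 2). No test is given for these steps, since they chose the gene. Per length, Ncf1 reached 14.8 and 12.7 RPKM at day 5, above 76.5% and 72.5% of the genes with RPKM over 0 in those libraries. In RNA from a whole culture, fewer cells with a transcript and less RNA per cell cannot be told apart.

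In the libraries labelled knockdown, Ncf1 stayed near the detection limit on every day. The day 0 libraries held 4 counts each, those of day 3 held 6 and 8, those of day 5 held 22 and 10 and that of day 10 held 19. These are 0.217 and 0.278 CPM, then 0.303 and 0.566 CPM, then 0.925 and 0.672 CPM, and 1.10 CPM. All 7 values lay above the controls of day 0 and below the controls of every later day. Of the 14 libraries, 8 held at least 10 counts of Ncf1. They were 5 controls, the group in which it was high, and 3 labelled libraries, and the low-count filter asked for 2.

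At day 3, a day the choice of genes did not name, Ncf1 was lower in the libraries labelled knockdown. The mean was 0.434 CPM ± 0.185 (SD, n = 2) against 6.65 CPM in the controls, a ratio of 15.3, with both labelled libraries below both controls. The log2 fold change was −3.94 (SE 0.36, 95% interval −4.76 to −3.13, adjusted p = 0.000384 by the edgeR quasi-likelihood test, Benjamini-Hochberg adjusted). Without control day 3 replicate 2 it was −3.75 (adjusted p = 6.21e-05 by the same edgeR test). The control day 3 libraries belong to the same course as the values that chose Ncf1, so this difference is not independent of them. Ncf1 was the 1 subunit of 3 called at day 3, where 12.6% of all 13130 genes tested were called, 5.52% of them as lower. At days 5 and 10 the controls held 53.4 and 21.5 times the level of the labelled libraries, which is given without a test.

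**Figure D1:**
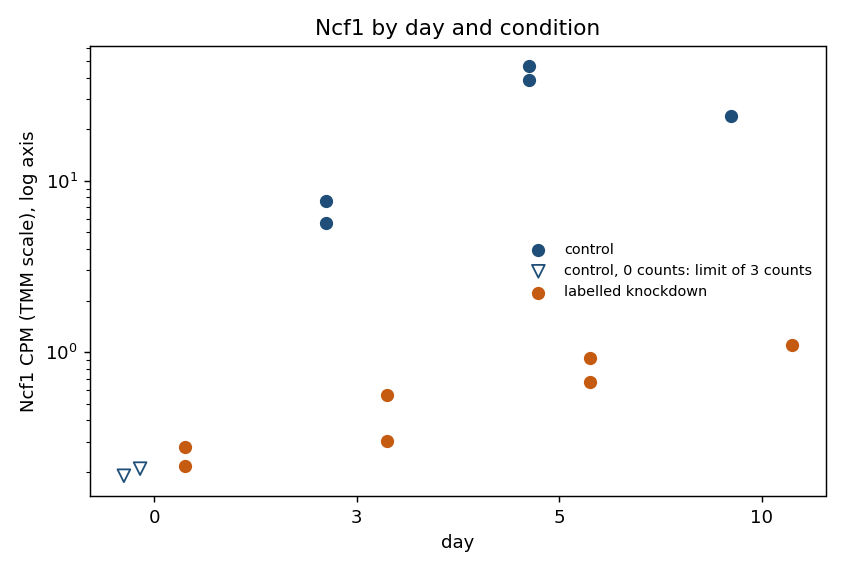
Ncf1 in each library by day, in CPM on a log axis, with controls and libraries labelled knockdown in separate colours and days evenly spaced. Controls climbed from 0 counts at day 0, drawn at the floor of 3 counts, to 46.6 and 38.6 CPM at day 5, and the labelled libraries stayed between 0.217 and 1.10 CPM.

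Within the libraries labelled knockdown, the Ncf1 values were higher on later days, but no step passed the threshold with all 14 libraries. Day 5 held 0.798 CPM ± 0.18 (SD, n = 2), which was 3.22 times the 0.248 CPM ± 0.0432 (SD, n = 2) of day 0. The log2 fold change was 1.71 (SE 0.46, 95% interval 0.66 to 2.75), with an unadjusted p of 0.00492 and an adjusted p of 0.125 by the edgeR quasi-likelihood test, Benjamini-Hochberg adjusted. The log2 fold change was 1.72 without control day 3 replicate 1 and also without replicate 2 of that group. Whether this step passed the threshold depended on which library was left out. For day 3 against day 0 the log2 fold change was 0.76 (adjusted p = 0.763 by edgeR), and for day 5 against day 3 it was 0.95 (unadjusted p = 0.0479, adjusted p = 1 by edgeR).

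With all 14 libraries, edgeR, DESeq2 and limma on RPKM called none of the 3 tested subunits in the 3 steps of the labelled libraries. At an unadjusted p under 0.05, edgeR gave 0 of 3 subunits for day 3 against day 0, 1 of 3 for day 5 against day 3 and 1 of 3 for day 5 against day 0, and over all genes 11.1%, 2.44% and 12.2% had such a p. With the adjusted p, 0.906%, 0.0152% and 2.00% of all genes were called in these steps.

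Ncf1 shares exon bases with Gtf2ird2, a gene of the TFII-I family on the opposite strand at chr5:134184019-134224355. The overlap was 408 bases, or 11.1% of the 3663 exon bases of Ncf1. The libraries were directional, but the strand setting of the counting is not given in the sources used here, so reads in the overlap cannot be assigned with certainty. Gtf2ird2 stood at 13.9 and 13.7 CPM in the control day 0 libraries that held no Ncf1 counts. Its level ranged from 13.7 to 33.8 CPM in the controls and from 11.2 to 18.9 CPM in the labelled libraries (log2 fold change over days −0.46, SE 0.13, adjusted p = 0.0281 by edgeR). The nearest coding gene at higher coordinates, Gtf2i, lies 8209 bases away and gave a log2 fold change of −0.35 with an SE of 0.15 (adjusted p = 0.112 by edgeR).

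Cyba (ENSMUSG00000006519.10, chr8:122424776-122432930 on the minus strand), the membrane partner, was present in every library. Its control values were 17.4 and 14.3 CPM on day 0, then 14.9 and 40.9 CPM on day 3, then 15.1 and 15.9 CPM on day 5, with 14.7 CPM on day 10. In the labelled libraries its values were 22.7 and 18.2 CPM on day 0, then 16.3 and 16.3 CPM on day 3, then 15.9 and 14.0 CPM on day 5, with 17.4 CPM on day 10. The 40.9 CPM of control day 3 replicate 2 stood above the other 13 libraries, which lay between 14.0 and 22.7 CPM. The exons of Cyba cover 1039 bases, the shortest of the 5 subunits, and this is the library in which short genes read high. The part of exon length in its value was not tested.

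Nox4 (ENSMUSG00000030562.14, chr7:87246096-87398710 on the plus strand), the catalytic subunit that needs no organiser, was also present in every library, at a lower level. Its control values were 5.44 and 5.29 CPM on day 0, then 7.46 and 2.20 CPM on day 3, then 4.75 and 3.58 CPM on day 5, with 4.36 CPM on day 10. The labelled libraries gave 7.44 and 3.55 CPM on day 0, then 5.76 and 3.82 CPM on day 3, then 4.37 and 4.97 CPM on day 5, with 3.54 CPM on day 10. The lowest value, 2.20 CPM, came from the same control day 3 replicate 2, and the exons of Nox4 cover 8471 bases, the longest of the subunits. The conditions overlapped in their ranges over the 14 libraries.

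Neither Cyba nor Nox4 passed the threshold between the conditions. Averaged over days 0, 3 and 5, the edgeR quasi-likelihood test with Benjamini-Hochberg adjusted p-values gave Cyba a log2 fold change of −0.14 (SE 0.22, 95% interval −0.62 to 0.34, adjusted p = 0.656). For Nox4 it gave 0.04 (SE 0.28, 95% interval −0.59 to 0.67, adjusted p = 0.934). Of these 2 genes 0 were called, none had an unadjusted p under 0.05, and DESeq2 and limma also called 0, while 26.9% of all genes tested were called. The intervals leave room for differences of either sign. Without control day 3 replicate 1 the fold change of Cyba was −0.33 (adjusted p = 0.00967 by edgeR), in a fit that called 57.9% of all genes, and without replicate 2 it was 0.15.

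By day, the 2 genes gave 0 calls at day 0, where 7.09% of genes were called, and 0 at day 5, where 7.78% were, with none at an unadjusted p under 0.05 and 0 by DESeq2 or limma. At day 0 the log2 fold changes were 0.37 for Cyba (adjusted p = 0.679 by edgeR) and 0.05 for Nox4 (adjusted p = 0.977 by edgeR), and at day 5 they were −0.05 (adjusted p = 0.965) and 0.15 (adjusted p = 0.912) by the same edgeR test. At day 3 Cyba gave −0.75 (SE 0.37, adjusted p = 0.197 by edgeR), and this value turned on 1 library. Without control day 3 replicate 1 it was −1.32, and without replicate 2 it was 0.13. Nox4 gave −0.08 at day 3 (adjusted p = 0.926 by edgeR). Its sign also turned, to 1.13 without replicate 1, and it was −0.62 without replicate 2.

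In the time steps of the labelled libraries, Cyba gave log2 fold changes of −0.33 for day 3 against day 0, −0.12 for day 5 against day 3 and −0.45 for day 5 against day 0. The adjusted p-values by edgeR were 0.883, 1 and 0.767. Nox4 gave −0.20, −0.05 and −0.25 in the same order, with adjusted p-values of 0.973, 1 and 0.933 by edgeR.

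Cybb (ENSMUSG00000015340.8, chrX:9435252-9487771 on the minus strand), the phagocyte catalytic subunit, was at 0 counts in 12 of the 14 libraries, among them all 7 controls. It held 3 counts in the labelled knockdown library of day 5 replicate 1 and 1 count in that of day 10. No library reached the 10 counts that the filter asked for, so no fold or test is given. The controls of day 5, which held 834 and 496 counts of Ncf1, held none of Cybb.

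**Figure D2:**
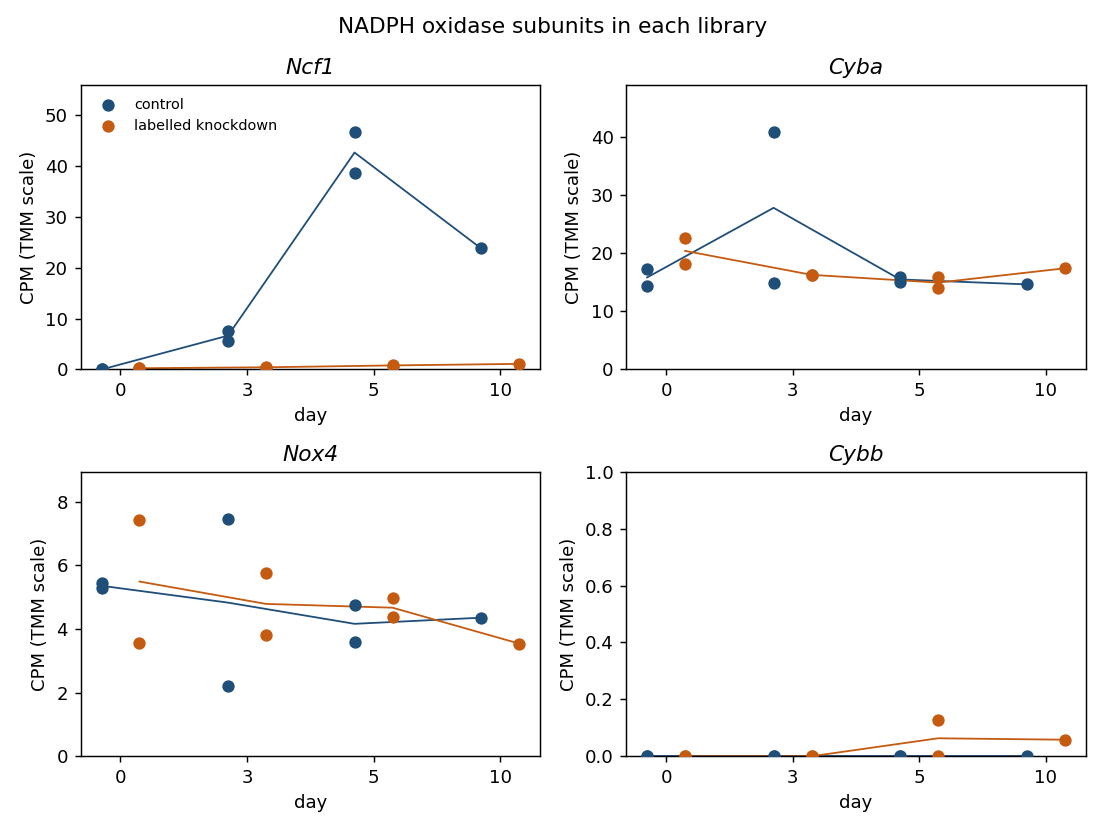
Level of Ncf1, Cyba, Nox4 and Cybb in each library by day in CPM on linear axes, 1 panel per gene, with points for libraries, lines for group means and days evenly spaced. Ncf1 reached 46.6 CPM in the controls, Cyba stayed between 14.0 and 22.7 CPM outside the 1 library at 40.9 CPM, Nox4 stayed between 2.20 and 7.46 CPM, and Cybb was at 0 counts in 12 of 14 libraries.

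The order of the group levels differed between the 3 tested genes. For Ncf1 the groups ran, in mean CPM, from control day 5 over control day 10 and control day 3 to labelled knockdown day 10, day 5, day 3 and day 0, with control day 0 last, and no neighbours overlapped, though the day 10 groups are 1 library each. The labelled groups of Ncf1 rest on 4 to 22 counts per library. Control days 0 and 5 chose the gene, so its order is a description. For Cyba 5 of the 7 pairs of neighbours overlapped, and the same number did for Nox4. Compared per length, Cyba held 17.4 to 40.0 RPKM (median 20.2) and Nox4 0.41 to 1.79 RPKM (median 1.07) over the 14 libraries. In RPKM Ncf1 lay below Nox4 in the labelled libraries (0.07 to 0.35 RPKM), above it in the controls of days 3, 5 and 10, and below Cyba in each of the 14 libraries.

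**Figure D3:**
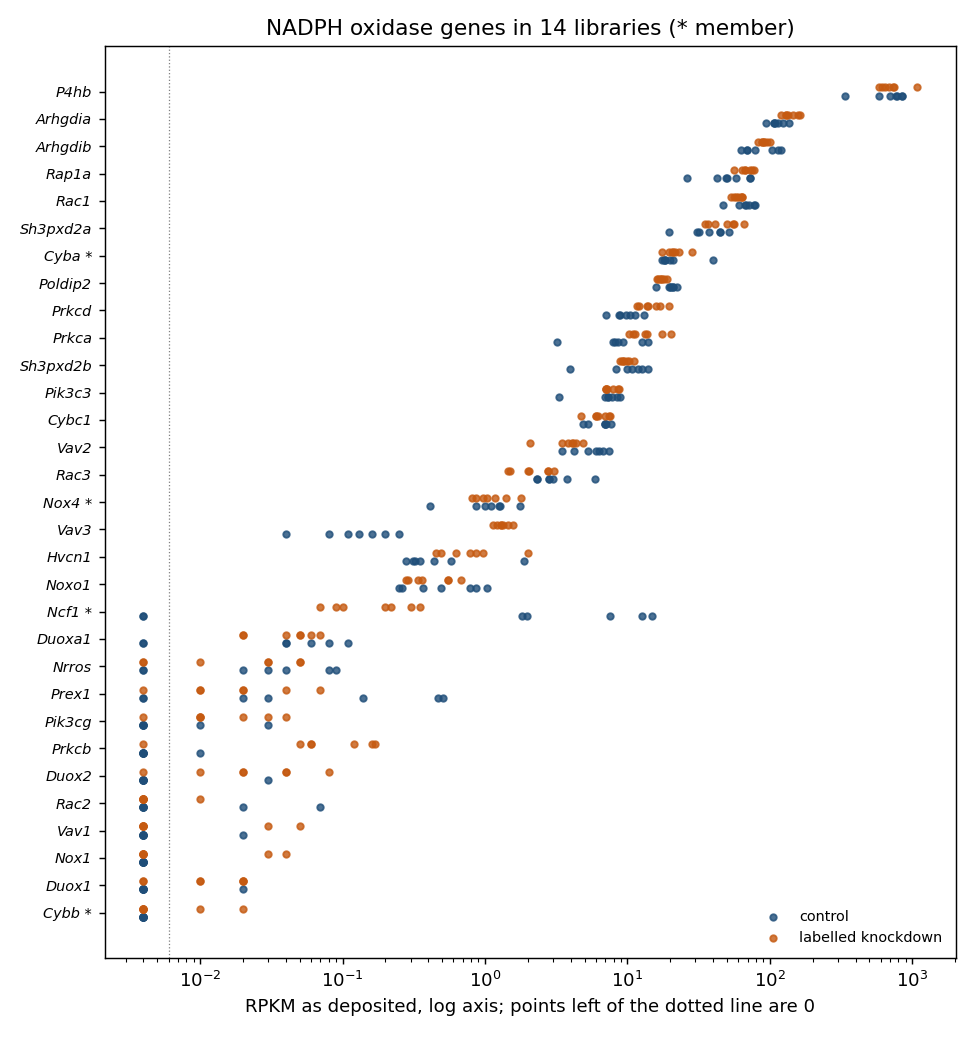
Levels per length, in RPKM on a log axis, of the subunits (asterisks) and the related genes, with 1 point per library in separate colours for controls and libraries labelled knockdown and values of 0 drawn left of the dotted line. Cyba held 17.4 to 40.0 RPKM and Nox4 0.41 to 1.79 RPKM, while Ncf1 ran from 0 to 14.8 RPKM in the controls and from 0.07 to 0.35 RPKM in the labelled libraries.

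Macrophage and monocyte markers, the list of the cells best known for Ncf1 and Cybb, summed to low levels. Of 20 macrophage and monocyte markers 17 had a row, and their summed level was 4.11 to 12.9 CPM (median 4.92) in the controls and 7.28 to 13.7 CPM (median 9.33) in the labelled libraries, in which Ncf1 was low. Lyz2 (1.56 to 4.26 CPM in the controls, 3.27 to 9.60 CPM in the labelled libraries) and Cd14 (0.666 to 4.56 CPM and 2.05 to 3.20 CPM) made up much of these sums. The defining markers were at or near 0: Ptprc had 0 to 2 counts per library, Spi1 and Adgre1 0 to 1, Csf1r 0 to 7 and Itgam 0 to 10, and Tyrobp had no row. The sums of the other lists were 0.632 to 20.6 CPM in the controls and 0.977 to 3.89 CPM in the labelled libraries for neutrophil markers, 0.348 to 2.94 CPM and 0.168 to 1.34 CPM for lymphocyte markers, and 86.3 to 215 CPM and 108 to 242 CPM for osteoclast markers. The osteoclast sums were not low. They came mostly from the protease Ctsk (39.8 to 167 CPM over the 14 libraries), the integrin Itgb3 (14.9 to 62.3 CPM) and the transcription factor Nfatc1 (18.2 to 49.9 CPM). The phosphatase Acp5 had 0 to 9 counts per library, Ocstamp and Atp6v0d2 0 to 5, Oscar 0 to 2, and Calcr and Dcstamp 0 to 1. Tnfrsf11a had no row. The 9 osteoclast markers with a row were named after their values were seen. The part of osteoclast-lineage RNA in the subunits' levels was not tested. The neutrophil sum of 20.6 CPM was that of control day 3 replicate 2. Osteoblast markers summed to 14800 to 32970 CPM in the controls and 13480 to 25530 CPM in the labelled libraries, with Col1a1, the main bone collagen, at 2561 to 7200 CPM, the transcription factors Runx2 and Sp7 at 47.4 to 181 CPM and 31.5 to 126 CPM, and the phosphatase Alpl at 0.209 to 156 CPM.

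The other parts of the oxidase system were read from a list of 30 genes, of which 27 had a row and 19 were tested. Averaged over days, 4 were called higher in the libraries labelled knockdown, where 15.0% of all genes were, and 3 lower, where 11.9% of all genes were. The median log2 fold change of the 19 was −0.01, against −0.003 over all genes. The 4 higher genes were Vav3, an exchange factor that loads Rac with GTP, and the protein kinase C genes Prkca, Prkcb and Prkcd, kinases of a family that phosphorylates p47phox. Prkcb passed the low-count filter only through 2 labelled libraries, so its call is not read as a difference, which leaves 3 higher genes. The 3 lower genes were Vav2, another exchange factor, the GTPase Rac3 and Poldip2, a partner that raises Nox4 activity. Prkcd, Rac3 and Poldip2 are named to complete these counts, after their values were seen. Without control day 3 replicate 2 the counts were 7 higher and 4 lower, and over all genes the calls also went up, from 3530 to 6168 of 13130.

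Vav3 held 0.294 to 1.44 CPM in the controls and 6.22 to 9.06 CPM in the labelled libraries, without overlap on any day. Its log2 fold change was 3.32 (SE 0.24, adjusted p = 8.28e-06 by the edgeR quasi-likelihood test, Benjamini-Hochberg adjusted). Prkca held 37.5 to 127 CPM in the controls and 98.7 to 179 CPM in the labelled libraries, with a log2 fold change of 0.65 with an SE of 0.15 (adjusted p = 0.0127 by edgeR, and 0.0521 without control day 5 replicate 1). Vav2 gave a log2 fold change of −0.63 with an SE of 0.11 (adjusted p = 0.00311 by edgeR), from 19.8 to 41.2 CPM in the controls to 11.9 to 25.5 CPM. Prkcb rested on few reads, with 1 count in all controls together and 0 to 11 counts per labelled library, so no fold is given, and its adjusted p by edgeR ranged from 0.00898 to 1 as single libraries were left out.

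Subunits of related oxidases were few in reads. Noxo1, the organiser that takes the place of Ncf1 in other oxidases, held 0.614 to 2.56 CPM in the controls and 0.636 to 1.69 CPM in the labelled libraries, with a log2 fold change of −0.29 with an SE of 0.26 (adjusted p = 0.445 by edgeR). Nox1, another catalytic subunit, and Rac2, the GTPase of blood cells, had 4 counts each over all 14 libraries, and Noxa1 had no row. Rac1, the widely expressed GTPase, held 266 to 362 CPM in the controls and 240 to 280 CPM in the labelled libraries. Its log2 fold change was −0.26 (SE 0.09, adjusted p = 0.051 by edgeR), and the adjusted p was 0.0306 by edgeR with the replicate block.

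By day, the list gave 1 higher and 0 lower genes at day 0, where 7.09% of all genes were called in either direction. At day 3 it gave 2 higher and 0 lower genes, where 7.06% and 5.52% of all genes were called. At day 5 it gave 1 higher and 1 lower, where 5.32% and 2.47% were. The higher genes were Vav3 and Prkca at day 3 and Vav3 at day 5. The lower gene at day 5 was Prex1, a Rac exchange factor of leukocytes, named after its values were seen. It had 10 or more counts in 3 controls and 1 labelled library, so it passed the low-count filter through the group in which it was high, and its call is not read as a difference. It had 2, 0, 3, 0, 70, 45 and 21 counts in the controls in order of day and 0, 4, 2, 1, 12, 2 and 3 in the labelled libraries. Its counts were highest in the day 5 controls. In the 3 time steps of the labelled libraries, edgeR called 0 genes of this list.

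**Figure D4:**
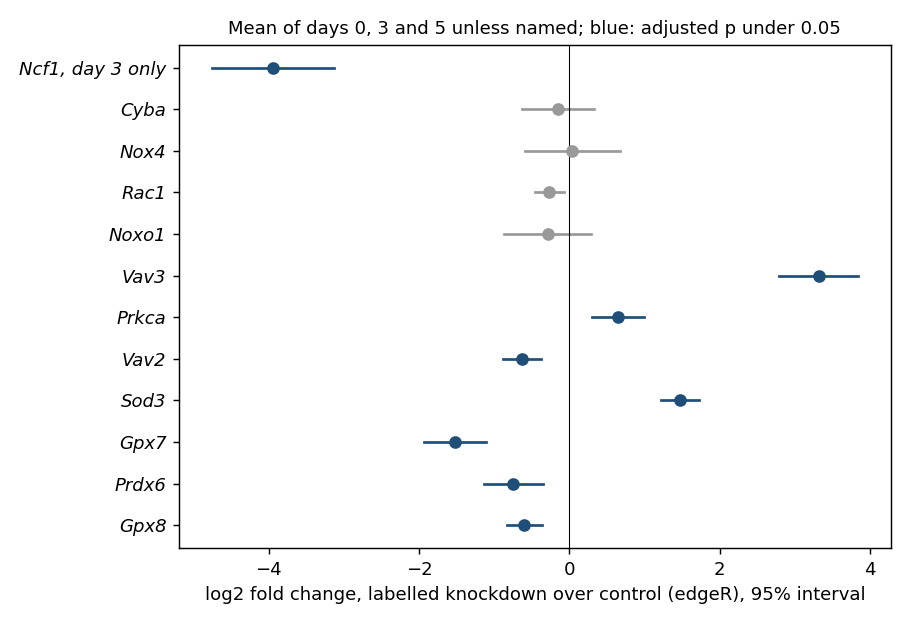
Log2 fold changes of the subunits and of the named related genes, libraries labelled knockdown against controls, with 95% intervals from edgeR. Ncf1 at day 3 lay at −3.94 and Vav3 at 3.32, while the intervals of Cyba (−0.62 to 0.34) and Nox4 (−0.59 to 0.67) averaged over days included 0.

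Enzymes that remove superoxide and peroxide formed the last list, with 18 of 19 genes tested. Averaged over days 1 was called higher and 4 lower in the labelled libraries, beside 15.0% higher and 11.9% lower over all genes. The median log2 fold change was −0.15, beside −0.003 over all genes. By day the median was −0.17 at day 0, −0.55 at day 3 and 0.06 at day 5, beside 0.03, 0.007 and 0.007 over all genes. The summed level of the list was 4372 CPM in control day 3 replicate 2, where short genes read high, and the median over the controls was 2230 CPM. Sod3, the extracellular superoxide dismutase, was higher, with a log2 difference of 1.48 (SE 0.11, adjusted p = 1.14e-05 by edgeR), from 11.3 to 27.8 CPM in the controls to 43.5 to 73.8 CPM. Gpx7, a peroxidase of the endoplasmic reticulum, changed by −1.52 (SE 0.19, adjusted p = 0.000306 by edgeR), from 43.5 to 119 CPM to 18.9 to 24.7 CPM. Neither gene overlapped between the conditions on any day.

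Prdx6, a peroxiredoxin, changed by −0.74 (SE 0.18, adjusted p = 0.0124 by edgeR) and Gpx8, also of the endoplasmic reticulum, by −0.60 (SE 0.10, adjusted p = 0.00243 by edgeR). The remaining lower gene was Txnrd2, a mitochondrial thioredoxin reductase, at −0.59 (adjusted p = 0.0312 by edgeR), named to complete the count after its values were seen. The counts turned on the control day 3 libraries: without replicate 2, 5 genes were called higher and 6 lower, and without replicate 1, 2 were called higher and 9 lower. Over all genes the shares also went up, to 24.9% higher and 22.1% lower without replicate 2 and to 31.9% higher and 26.0% lower without replicate 1.

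The genes whose log2 CPM followed that of Ncf1 most closely over the 14 libraries were Tgfb1, a growth factor stored in bone matrix, with a Pearson correlation of 0.972, Slc36a2 (0.955), an amino acid transporter, Col11a2 (0.951), a fibrillar collagen chain, Adgrd1 (0.949), an adhesion receptor, and C1qtnf3 (0.94), a secreted protein of the C1q family. These libraries share their depth and day structure, so the values describe likeness only and carry no p. Col11a2 went from 0.793 CPM at control day 0 to means of 8.05, 218 and 60.4 CPM on days 3, 5 and 10, and from 0.787 to 1.16, 1.79 and 2.03 CPM in the labelled libraries. Tgfb1 had a smaller span, with means of 23.8, 50.7, 76.7 and 65.3 CPM in the controls and 26.5, 31.8, 35.2 and 39.6 CPM in the labelled libraries. Without control day 3 replicate 2, 4 of these 5 genes were still among the closest 5.

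**Figure D5:**
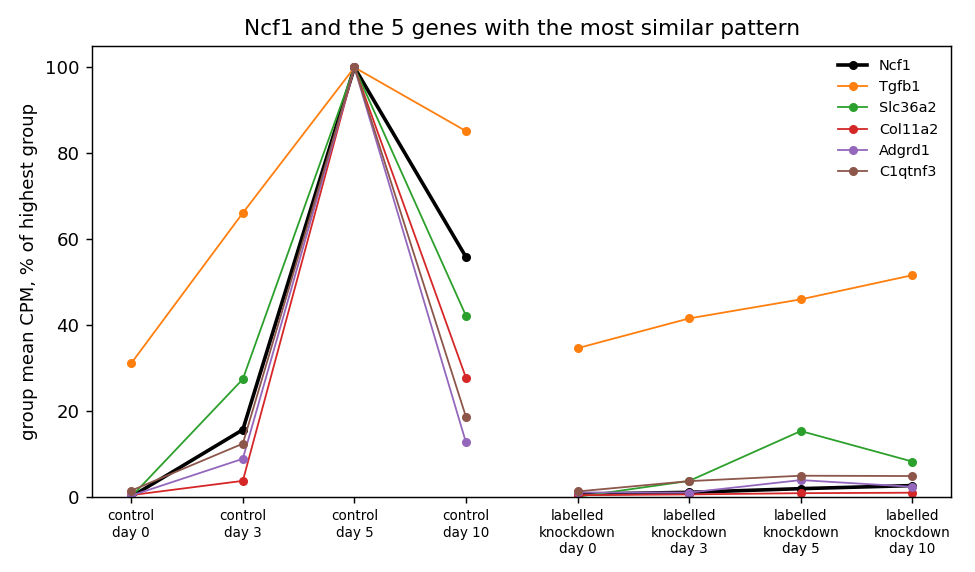
Group means by day of Ncf1 and of the 5 genes closest to it over the 14 libraries, each as a percent of its highest group mean in CPM, for controls and libraries labelled knockdown. Each was highest at control day 5, among them Col11a2 at 218 CPM and Tgfb1 at 76.7 CPM, and lower again in the control library of day 10.

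Among osteoblast markers, the likeness to Ncf1 over the 14 libraries ran from −0.165 for Phex and 0.133 for Spp1 to 0.867 for Pth1r, the receptor of parathyroid hormone, 0.89 for Ibsp, a bone matrix sialoprotein, and 0.928 for the transcription factor Mef2c. Runx2 gave 0.727, Sp7 0.544 and Alpl 0.74. The closest genes of Cyba were Pias4 (0.972), Atp5d (0.967) and Emc4 (0.956), and those of Nox4 were Xrn2 (0.851), Mbip (0.834) and Nnt (0.817). Without control day 3 replicate 2 these fell to 0.875, 0.827 and 0.756 for Cyba and to 0.739, 0.79 and 0.68 for Nox4, and 1 of 3 genes stayed among the closest for each, so the lists of Cyba and Nox4 rest on that library more than that of Ncf1.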

How the data were processed

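RNA of 14 MC3T3-E1 libraries was analysed. The authors deposited raw read counts for 24346 genes and RPKM values (counts scaled to gene length and library size) for 24340 genes. The tools TopHat2, bcl2fastq and edgeR and the build GRCm38 are named, without versions or roles, per the submitters' processing notes. The counting tool, its strand setting and the annotation were not given in the sources used here. In 8551 genes compared, the deposited RPKM were proportional to the counts within 0.478%.

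A gene was tested if 2 or more libraries held 10 or more counts of it (13130 genes, with 11216 left out). TMM scaling set the library sizes, to which CPM refer. In edgeR 4.0.16 under R 4.3.3, a mean per group was estimated from all libraries by the robust quasi-likelihood method, which left 6 residual degrees of freedom, with Benjamini-Hochberg adjustment over all genes tested and a threshold of 0.05. Intervals are at the 95% level. The edgeR fit was tested on simulated counts with known changes in well-counted genes, and the DESeq2 and limma fits were not. The simulated counts held no group set to 0, so they do not check a gene such as Ncf1. Alternatives were DESeq2 1.42.0 (test and size factors), other low-count filters, limma 3.58.1 on log2(RPKM + 1) and log2(RPKM + 0.1), a replicate block and leaving out each library; on the log2(value + pseudocount) scale, changes of low genes are understated. Day 10 has 1 library per condition and no test. Library depth, 8044687 to 23301514 counts, sets the precision of low genes.

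Replicate numbers come from the labels. Deviations from the group means correlated between same-numbered libraries of the conditions at 0.234, 0.141 and 0.228 on days 0, 3 and 5. The numbers were therefore taken to pair the libraries in the replicate block, which was only an alternative. All tests given without naming the block leave this pairing out.

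The members and lists were chosen with earlier results of these data known. Genes named were the members, 5 relatives, Macf1, the 4 called genes of each list with the largest averaged fold change, the 5 (Ncf1) or 3 genes most like each member by Pearson correlation of log2 CPM (prior count 2, mean of at least 1 CPM), neighbours of Ncf1 and defining markers. A result on 1 further gene is not reported here. Positions and exon lengths come from GENCODE M21 of GRCm38; promoters come from RefSeq, which matched 4 of the 5 members. Python 3.11.15, pandas 2.3.3 and matplotlib 3.10.9 were used.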

Additional observations from a re-analysis of the deposited data

Results flagged for a closer look

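The difference of Ncf1 between the conditions had opposite signs on different days. The libraries labelled knockdown were higher by 0.248 CPM at day 0, where they held 4 counts each against 0 in both controls, and differed by −6.21 CPM at day 3 and −41.8 CPM at day 5. Noxo1, the related organiser, differed by −0.887 CPM at day 0, −0.538 CPM at day 3 and 0.436 CPM at day 5. On each of these days every labelled library lay on 1 side of both controls. Noxo1 was low, at 8 to 50 counts per library. How many of all genes separate in this way was not counted. For both genes the change of sign between days was not tested, and Ncf1 at days 0 and 5 is a description because those control values chose the genes.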

How the results depend on the processing

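Of 360 values of Ncf1, Cyba and Nox4 under 20 alternatives, 333 kept their sign and side of the threshold, 4 passed it and 23 changed sign. Ncf1 at day 3 kept both in all 20 (−4.40 to −3.52 as single libraries were left out). The number of subunits called ran from 0 to 1 averaged over days, from 1 to 2 at day 3 and from 0 to 1 for labelled knockdown day 5 against day 0 when libraries were left out. Cyba averaged over days became 0.0004 and 0.0017 in limma on log2(RPKM + 1) and log2(RPKM + 0.1). Nox4 became −0.032 at day 0 with the replicate block and −0.017 with log2(RPKM + 0.1), 0.14 and 0.38 at day 3 in the 2 limma fits, and 0.0053 for labelled knockdown day 5 against day 3 with the block. Leaving out single libraries turned the sign of Cyba averaged over days (−0.33 to 0.15), at day 3 (−1.32 to 0.13) and at day 5 (−0.14 to 0.036). It turned that of Nox4 averaged over days (−0.17 to 0.44), at days 0 (−0.59 to 0.47), 3 (−0.62 to 1.13) and 5 (−0.026 to 0.36), and in the labelled knockdown steps from day 0 to 3 (−0.63 to 0.44), 3 to 5 (−0.31 to 0.29) and 0 to 5 (−0.67 to 0.39). Macf1 averaged over days ran from −0.081 to 0.51. The causes were not tested. The replicate block changed the call of no subunit; for labelled knockdown day 5 against day 0 it gave Ncf1 an adjusted p of 0.146 by edgeR. Rac1 averaged over days had adjusted p-values of 0.000633 to 0.134 by edgeR as single libraries were left out.

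Over all genes, calls rose under DESeq2 from 931 to 1469 at day 0, 1652 to 2804 at day 3, 1022 to 1607 at day 5, and from 119 to 460, 2 to 16 and 262 to 612 in the steps 0 to 3, 3 to 5 and 0 to 5 of the labelled libraries. Without the low-count filter they were 2827 at day 3 and 334, 20 and 509 in those steps, and log2(RPKM + 0.1) gave 1 in the step 3 to 5. Leaving out single libraries gave 2389 to 7604 averaged over days (3530 with all), 367 to 3742, 358 to 7718 and 338 to 4118 at days 0, 3 and 5, and 13 to 1936, 0 to 72 and 36 to 2032 in the steps. Depth limits Ncf1 in the labelled libraries and Cybb.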

Other observations

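Hvcn1, the voltage-gated proton channel that balances the charge moved by phagocyte oxidases, was highest in the day 10 libraries of both conditions, and was picked out after its values were seen. It held 0.9 to 2.35 CPM in the controls of days 0, 3 and 5 and 6.20 CPM in the control library of day 10. The libraries labelled knockdown held 1.41 to 3.11 CPM on the earlier days and 6.62 CPM at day 10. Day 10 has 1 library per condition, so this has no replicate check. Averaged over days 0, 3 and 5 its log2 fold change was 0.76 (SE 0.26, adjusted p = 0.0555 by the edgeR quasi-likelihood test, Benjamini-Hochberg adjusted).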
